A study of Mus musculus with 12 samples.

Results

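The response of mouse liver to interleukin-6 (IL-6) that is common to mice with and without hepatic Socs3 was measured as 4 arrays after IL-6 against 4 arrays after phosphate-buffered saline (PBS), with the genotype as an additive factor. These are 8 of the 12 arrays of the series. Control mice were albumin-cre(-) Socs3(w/fl), so they kept 1 unmodified and 1 floxed allele of Socs3 without the recombinase. Socs3-deleted mice were albumin-cre(+) Socs3(-/fl), with 1 null allele and 1 floxed allele that Cre, driven by the hepatocyte-specific albumin promoter, removes. Other liver cells of these mice therefore keep their floxed allele. Each genotype received PBS or IL-6 into the peritoneum and was killed after 4 h, which gives 4 groups of 2 arrays of total liver RNA. The remaining 4 arrays come from a strain that lacks Ifng, which encodes interferon-gamma (IFN-γ), and that received PBS or IFN-γ. The labels do not say that the 2 arrays of a group came from separate mice, so the p-values cover array-to-array spread only. Genes were taken as moving the same way where, in each genotype, both IL-6 arrays lay on the same side of both PBS arrays. Of 6934 genes tested on 9558 probe sets, 314 did so upward and 270 downward.

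IL-6 binds its receptor and the shared subunit gp130, which activates JAK kinases and above all the transcription factor STAT3. In hepatocytes this pathway drives the acute phase response, in which the liver secretes serum amyloid A, fibrinogen, haptoglobin and other plasma proteins. STAT3 also induces Socs3, whose protein binds gp130 and the JAKs and shuts the signal off. Interferons bind receptors of their own and induce antiviral proteins, guanylate-binding proteins and immunity-related GTPases.

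The array medians lay between 82.3 and 85.7 intensity units, and the replicates of a group correlated with Pearson's r from 0.977 to 0.987 across probe sets. The liver label was borne out by albumin (Alb), which read 12087 to 13413 on the 8 arrays, and by the sum of 13 hepatocyte markers, which read 61961 to 74285. PBS replicate 2 of both genotypes stood apart, since 15 pancreatic acinar markers summed to 10813 in the control array and 24745 in the Socs3-deleted array, against 2563 to 2843 on the other 6. The summed erythroid markers ranged from 1234 to 8411 and were higher on replicate 2 than on replicate 1 of every group. In bulk liver RNA, fewer cells of a type and less RNA per cell cannot be told apart.

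Socs3 itself was lower in the deleted genotype and kept a small IL-6 difference in both. Its brighter probe set read 124 and 117 after PBS and 167 and 139 after IL-6 in control mice, and then 76.8 and 74.4 after PBS against 106 and 84.3 after IL-6 where Socs3 was deleted. Both IL-6 arrays lay above both PBS arrays in each genotype, with a common log2 change of 0.33 ± 0.09 (SE; limma adjusted p = 0.262). On the dimmer probe set the common log2 change was 0.24 and the arrays of the Socs3-deleted mice overlapped. The sources used here do not state whether the probe sets fall inside the floxed segment, so they are a partial check of the deletion.

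The additive model called no probe set, or 0% of 9558, at a limma adjusted p under 0.05. The smallest adjusted p was 0.0648, shared by 7 probe sets, and 978 had an unadjusted p under 0.05 (513 higher and 465 lower after IL-6) where 477.9 are due by chance. In this model a response of unequal size in the 2 genotypes counts as error. A limma fit with 4 group means, which removes that part from the error and averages both IL-6 changes, called 71 probe sets (0.743%), 59 higher and 12 lower, of which 63 moved the same way. With all 12 arrays and 6 group means limma called 104 (1.09%), 90 higher and 14 lower, and 60 were called by both of these fits. The 12 falls called with 4 group means all moved the same way. The rises that did not, chosen here after their values were seen, were Mx1, Cmpk2, Ifit2, Trim30a, Cd14, Lilr4b, Ext1 and Csf2rb2, which overlapped in at least 1 genotype. Dropping WT_IL6 replicate 2 alone gave 68 calls in the additive model, and no other array raised the count above 3. The 71 calls with 4 group means depended on single arrays: they became 0 without WT_PBS replicate 2, 7 without S3_IL6 replicate 2, 9 without S3_PBS replicate 2, 15 without WT_PBS replicate 1, 21 without S3_PBS replicate 1, 32 without WT_IL6 replicate 1, 41 without S3_IL6 replicate 1 and 55 without WT_IL6 replicate 2. Without both PBS arrays that hold pancreatic signal the count was 0 in the additive model and 0 with 4 group means, with fewer arrays in each fit.

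Measured by position alone, the 314 genes above PBS in both genotypes are 4.53% of the genes tested and the 270 genes below are 3.89%. These shares are the background for the counts given for each gene group. Of the 314, 40 had a common change of at least 2-fold, and 11 had at least 2-fold in each genotype separately: Saa3, Isg15, Gm9706, Ifit1, Ifit3, Ifi47, Igtp, Irgm1, Iigp1, Cxcl9 and Gbp2. These are changes of group means, and limma called 0 probe sets within control mice. There WT_IL6 replicate 2 often read far below replicate 1, at 61.3 against 144 for Gbp2, 50.6 against 138 for Cxcl9 and 299 against 1635 for Isg15. Of the 270, only Ddc, G6pc, Zg16 and Cpeb2 reached a common 2-fold, and Ddc, G6pc and Zg16 did so in each genotype. Zg16 is a pancreatic secretory granule gene that read 374 and 847 on the 2 PBS arrays with pancreatic signal and 85.1 to 92.1 elsewhere.

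**Figure D1:**
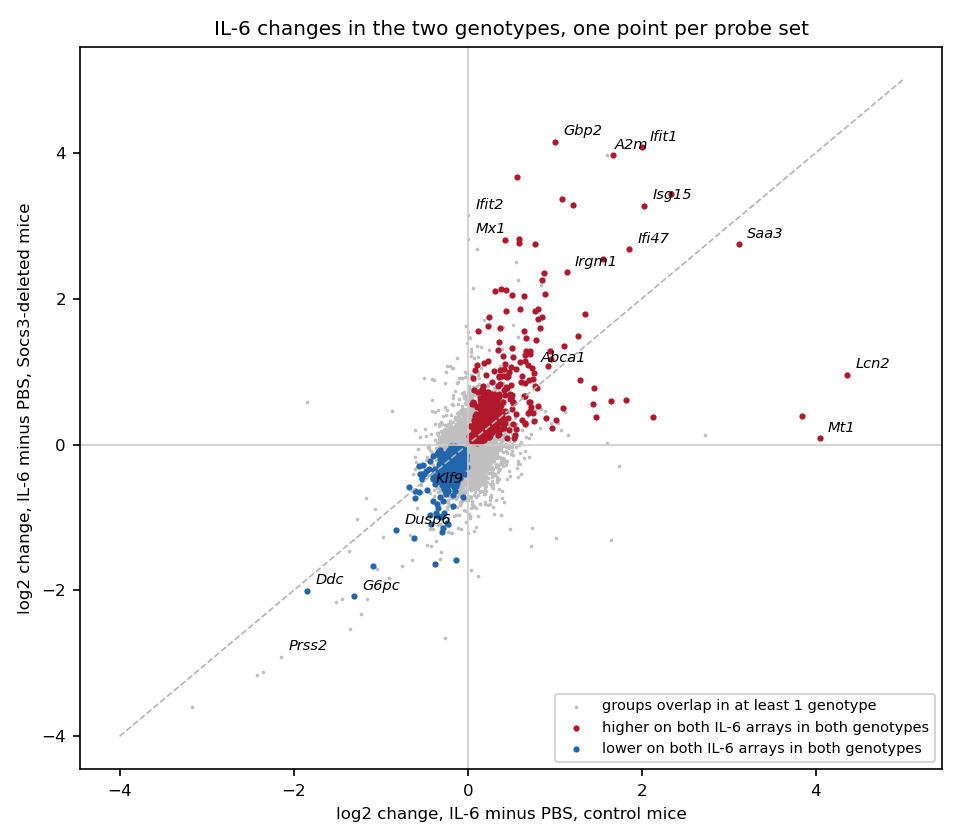
Log2 change after IL-6 in control mice (horizontal axis) against that in Socs3-deleted mice (vertical axis), 1 point per probe set. Red points lie above and blue points below PBS on every array in both genotypes, grey points overlap in at least 1 genotype, and the dashed line marks equal changes. Saa3 (3.11 and 2.75) and Ddc (-1.85 and -2.00) lie near the line, Gbp2 (4.15 in Socs3-deleted mice) above it and Lcn2 (4.36 and 0.96) below it.

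Of the 11 genes above PBS by at least 2-fold in each genotype, all but Saa3 and Gm9706 were on a list of interferon-inducible genes. Of 21 type I interferon-inducible genes, 14 lay above PBS in both genotypes and 0 below, with a median common log2 change of 1.26 against -0.01 over all genes. Of 34 IFN-γ-inducible genes, 12 lay above and 0 below, with a median of 0.44. The log2 change was more positive in Socs3-deleted than in control mice for 20 of 21 and 33 of 34 members. Over all genes tested this held for 3500 of 6934.

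The immunity-related GTPases attack membranes around intracellular pathogens. Iigp1 read 874 and 619 with PBS and 2517 and 1382 with IL-6 in control mice. With Socs3 deleted it read 887 and 1064 with PBS and 3449 and 3278 with IL-6. Each IL-6 array was above every PBS array of either genotype, and the common change was 2.96-fold (log2 1.57 ± 0.20, SE; limma adjusted p = 0.0648, and 0.026 with 4 group means). Its second probe set gave a log2 change of 1.23. Irgm1 read 86.7 and 69.6, then 227 and 128 in control mice, and 105 and 111, then 476 and 650 with Socs3 deleted, the PBS pair first in each case. The lowest IL-6 array stood above the highest PBS array, and the common change was 3.37-fold (log2 1.75 ± 0.28, SE; limma adjusted p = 0.117, and 0.0158 with 4 group means). Ifi47, another GTPase of this family, read 231 and 90.0, then 948 and 285 in control mice, and 335 and 298, then 1864 and 2207 in Socs3-deleted mice (common log2 change 2.27 ± 0.42, SE; limma adjusted p = 0.117). WT_IL6 replicate 2 was low among the IL-6 arrays for all 3 genes, and for Ifi47 it lay below both Socs3-deleted PBS arrays. Igtp and Irgm2 had common log2 changes of 2.05 and 1.23. Members of these GTPase families are similar in sequence, so their probe sets may share signal.

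Among type I interferon-inducible genes, Isg15, a ubiquitin-like protein attached to other proteins during antiviral defence, read 182 and 161 with PBS and 1635 and 299 with IL-6 in control mice, and 539 and 332 with PBS and 3875 and 4324 with IL-6 in the deleted genotype. Its common log2 change was 2.65 ± 0.50 (SE; limma adjusted p = 0.117), and 2.29 without WT_IL6 replicate 1. Ifit1, which binds viral RNA that lacks a host cap, read 58.9 and 52.4, then 426 and 116 in control mice, and 530 and 67.8, then 3448 and 2984 in Socs3-deleted mice (common log2 change 3.04 ± 0.71, SE; limma adjusted p = 0.184). The first Socs3-deleted PBS array lay above both control IL-6 arrays. Usp18, the protease that removes Isg15, rose in the fit with 4 group means (limma adjusted p = 0.00619), with log2 changes of 0.59 and 2.76. Irf7, Ifih1 and Plscr1, an interferon regulator, an RNA sensor and a membrane protein, also passed in that fit, with common log2 changes of 1.26, 1.47 and 1.61.

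Of the guanylate-binding proteins, Gbp2 read 43.8 and 50.3, then 144 and 61.3 in control mice, and 206 and 53.1, then 1454 and 2381 in Socs3-deleted mice. The groups did not overlap within a genotype, but both control IL-6 arrays lay below the higher Socs3-deleted PBS array (common log2 change 2.58 ± 0.69, SE; limma adjusted p = 0.243). Cxcl9, which recruits activated T cells, read 37.1 and 35.1, then 138 and 50.6 in control mice. With Socs3 deleted it read 138 and 43.8, then 934 and 612, so its first PBS array there was level with the higher control IL-6 array. The common log2 change was 2.25 ± 0.54 (SE; limma adjusted p = 0.186), with 1.21 in control and 3.28 in Socs3-deleted mice. Cxcl9 was 1 of 2 genes above PBS in both genotypes among 28 chemokines and cytokines, the other being Tgfb1 at 0.21. Of 14 genes of MHC class I and peptide loading, 2 lay above PBS in both genotypes: Tap1, a subunit of the peptide transporter, at 1.55 ± 0.30 (SE; limma adjusted p = 0.124, and 0.020 with 4 group means) and Psmb9, an immunoproteasome subunit, at 1.07 ± 0.22 (SE; limma adjusted p = 0.157). A second Tap1 probe set gave -0.03, with -0.26 in control mice, and did not move the same way.

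**Figure D2:**
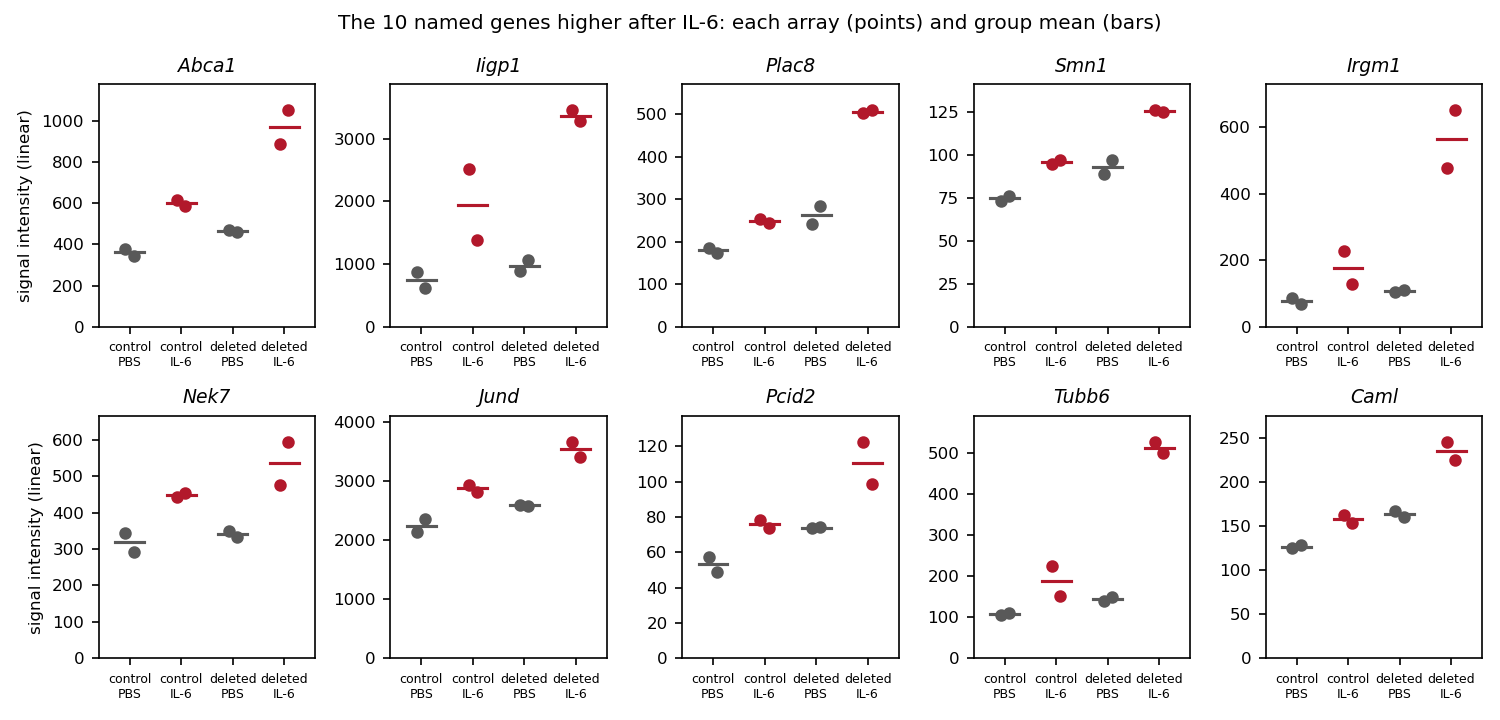
Signal intensity on a linear scale (vertical axis) of the 10 genes named for a higher signal after IL-6, by group (horizontal axis); points are arrays and bars group means of 2 arrays. In each panel both IL-6 arrays lie above both PBS arrays of their genotype, with the largest common change in Irgm1 (log2 1.75) and the smallest in Smn1 (0.40).

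Promoters of 3 of these genes and of Socs3 are printed because interferon and STAT signals act through short motifs near the start. Each runs 5′ to 3′ from 250 bases before to 50 after the RefSeq start on GRCm38.p6, and capitals mark matches to the interferon-stimulated response element core (GAAA, any 2 bases, GAAA) or the STAT motif core TTCNNNGAA, searched on both strands. Irgm1 lies at chr11:48871371-48871670 on the minus strand, Igtp at chr11:58199306-58199605 on the plus strand, Isg15 at chr4:156200769-156201068 on the minus strand and Socs3 at chr11:117969317-117969616 on the minus strand.
Irgm1: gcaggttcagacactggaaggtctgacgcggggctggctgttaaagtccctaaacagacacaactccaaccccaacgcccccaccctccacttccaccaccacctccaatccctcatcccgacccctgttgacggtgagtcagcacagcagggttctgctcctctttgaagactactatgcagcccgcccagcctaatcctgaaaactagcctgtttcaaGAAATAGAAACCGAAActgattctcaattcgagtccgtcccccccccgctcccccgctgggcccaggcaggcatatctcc
Igtp: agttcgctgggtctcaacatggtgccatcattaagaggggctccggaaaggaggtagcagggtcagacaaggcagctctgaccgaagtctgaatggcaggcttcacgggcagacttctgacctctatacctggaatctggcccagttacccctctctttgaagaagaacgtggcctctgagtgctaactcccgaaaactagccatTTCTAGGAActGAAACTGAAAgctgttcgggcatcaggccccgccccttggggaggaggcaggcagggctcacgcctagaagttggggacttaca
Isg15: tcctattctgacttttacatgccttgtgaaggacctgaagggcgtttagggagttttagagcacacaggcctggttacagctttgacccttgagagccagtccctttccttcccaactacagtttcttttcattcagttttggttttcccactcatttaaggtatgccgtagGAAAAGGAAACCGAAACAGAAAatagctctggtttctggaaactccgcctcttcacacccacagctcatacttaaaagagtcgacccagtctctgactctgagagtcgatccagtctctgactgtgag
Socs3: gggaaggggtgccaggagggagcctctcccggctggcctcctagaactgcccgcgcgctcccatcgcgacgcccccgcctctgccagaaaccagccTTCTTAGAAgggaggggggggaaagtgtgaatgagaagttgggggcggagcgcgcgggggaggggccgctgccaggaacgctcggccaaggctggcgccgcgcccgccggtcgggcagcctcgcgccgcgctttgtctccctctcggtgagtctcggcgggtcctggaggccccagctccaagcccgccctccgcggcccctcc
Irgm1 holds 2 overlapping response element matches, with first bases at -30 and -24, and Isg15 holds 3, at -78, -72 and -66. In Igtp a STAT motif match at -45 precedes a response element match at -34, and Socs3 holds a STAT motif match at -154. Each printed promoter thus holds a match, whereas those of Ifi47, Cxcl9, Tap1, Psmb9 and Irf7 held neither core. RefSeq gave a promoter for 36 of 41 genes that lay above PBS in both genotypes with a common change of at least 2-fold on any probe set. The response element core occurred in 13 of the 36 (36.1%), in 3.49% of all 27025 promoters and in 3.24% of those of genes tested. Some of the 13 are related genes, such as Gbp2, Gbp3 and Gbp7, so they are not independent. The STAT core occurred in 6 of the 36 (16.7%), in 8.47% of all promoters and in 6.75% of those of genes tested. Over all 300 promoters of genes above PBS in both genotypes, whatever the size of the change, 20 (6.67%) held the response element core and 18 (6%) the STAT core, where 3.24% and 6.75% of the promoters of all genes tested did. Among 258 promoters of genes below PBS in both genotypes, 4 (1.55%) held the response element core and 14 (5.43%) the STAT core. A match describes letters only and is not a measured binding site.

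Among acute phase genes, both Socs3-deleted PBS arrays exceeded both control PBS arrays for 23 of 32 (71.9%), against 16.4% of all genes tested. After IL-6, 27 of the 32 had a positive common change, where 3180 of all 6934 genes did. In both genotypes 8 (25%) of the 32 lay above PBS and 0 below. The median log2 change was 0.45 in control mice and 0.08 in Socs3-deleted mice, with 0.30 for the common change. Saa3, an inducible serum amyloid A, read 117 and 140, then 2786 and 442 in control mice, and 969 and 544, then 4810 and 4948 in Socs3-deleted mice. Its IL-6 arrays exceeded the PBS arrays within each genotype, with a common log2 change of 2.93 ± 0.49 (SE; limma adjusted p = 0.117). Lcn2, an iron-scavenging protein, read 53.5 and 31.6, then 1454 and 514 in control mice, and 1006 and 1907, then 3157 and 2288 in Socs3-deleted mice. The second control PBS array was below the floor of 33.1, so the change of 4.36 in control mice is understated there. Its common log2 change was 2.66 ± 0.68 (SE; limma adjusted p = 0.226, and 0.0316 with 4 group means), and a second, dimmer probe set gave 0.21.

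The protease inhibitor Serpina3n read 2684 and 1401, then 8022 and 5793 in control mice, and 5997 and 7118, then 9678 and 10259 in Socs3-deleted mice. The PBS arrays of Socs3-deleted mice lay within the range of the control IL-6 arrays, and the common log2 change was 1.21 ± 0.29 (SE; limma adjusted p = 0.185). The remaining same-way members, picked out by position, were the haem carrier Hpx, the fibrinogen chain Fgg, Orm1, Itih4 and the interleukin-1 blocker Il1rn, with common log2 changes of 0.24, 0.31, 0.47, 0.59 and 0.69. A2m, a broad protease inhibitor, had the list's second largest change, 2.78 ± 0.69 (SE; limma adjusted p = 0.206). Its control arrays read 23.6 and 26.8 after PBS, both below the floor, and 302 and 31.6 after IL-6, so they overlapped at the floor. Both metallothioneins, metal-binding stress proteins, lay above PBS in each genotype while differing in size. Mt1 read 1197 and 176, then 9294 and 6158 in control mice, and 9266 and 9157, then 9513 and 10082 in Socs3-deleted mice. Its log2 change was 4.04 in control mice and 0.09 in Socs3-deleted mice, and that of Mt2 was 3.84 and 0.39. Of 20 genes of iron and haem handling, 1 lay above and 1 below (Hpx and Aco1), and the iron hormone Hamp had a common log2 change of 0.64 (limma adjusted p = 0.415).

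Higher PBS levels in Socs3-deleted mice were frequent among the genes above PBS in both genotypes. Both Socs3-deleted PBS arrays exceeded both control PBS arrays for 173 of the 314 genes (55.1%) and for 16.4% of all genes tested. Both criteria use the control PBS arrays, so the shares are a description.

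Within the signalling pathway, 6 of 25 genes lay above PBS and 3 below in both genotypes. Stat3 read 556 and 379, then 800 and 647 in control mice, and 636 and 422, then 698 and 971 in Socs3-deleted mice. The IL-6 arrays lay above the PBS arrays in each genotype by 0.65 and 0.67 on the log2 scale, and the common change was 0.66 ± 0.18 (SE; limma adjusted p = 0.25); its second probe set gave 0.79. The phosphatases Ptpn1 and Ptpn2, which remove phosphate from JAKs and STATs, had common log2 changes of 1.11 ± 0.21 and 0.70 ± 0.15 (SE; limma adjusted p = 0.117 and 0.169), and Ptpn2 passed with 4 group means (limma adjusted p = 0.0465) but had a change of 0.11 with the floor at the 50th percentile. Ptpn1 read 276 and 181, then 567 and 325 in control mice, and 396 and 308, then 932 and 775 in Socs3-deleted mice. Osmr, the oncostatin M receptor, Jak3 and the adaptor Grb2 had common log2 changes of 0.45, 0.36 and 0.25. Lower values were read for Il6ra, the IL-6 binding receptor chain, at -0.23, for Pias3, a STAT3 inhibitor, at -0.19 and for the kinase Tyk2 at -0.08. Of the 5 SOCS genes, Socs3 alone moved the same way. Socs1 had a common log2 change of 1.11 that rested on 1 array, since it read 2150 on S3_IL6 replicate 2 and 149 to 219 on the other 7.

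Among regulators of transcription, Bcl3, a cofactor of NF-kappaB, read 539 and 452, then 877 and 700 in control mice, and 746 and 601, then 1890 and 1409 in Socs3-deleted mice. Its common change was 1.97-fold (log2 0.98 ± 0.17, SE; limma adjusted p = 0.117, and 0.0322 with 4 group means), and it was 1 of 29 STAT3-linked regulators above PBS in both genotypes, with Tat and Cdkn1a below. Of 22 immediate-early genes, Jund, Rhob and Jun lay above and Klf9 and Dusp6 below. Jund, an AP-1 subunit, read 2131 and 2356, then 2941 and 2821 in control mice, and 2603 and 2574, then 3662 and 3409 in Socs3-deleted mice. That is a change of 1.32-fold in which each IL-6 array exceeded all PBS arrays (log2 0.41 ± 0.07, SE; limma adjusted p = 0.117). Dusp6, the phosphatase of ERK kinases, had log2 changes of -0.82 in control and -1.17 in Socs3-deleted mice (limma adjusted p = 0.170 for the common change). Id3, an inhibitor of helix-loop-helix factors that was chosen after its values were seen, read 267 and 231, then 489 and 376 in control mice, and 344 and 532, then 1054 and 1267 in Socs3-deleted mice (common log2 change 1.11 ± 0.19, SE; limma adjusted p = 0.117, and 0.037 with 4 group means). Of 33 genes of the unfolded protein and heat shock response, the transcription factors Xbp1 and Atf4 lay above PBS at 0.45 and 0.46, and Atf4 passed with 4 group means (limma adjusted p = 0.0276).

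Outside these groups, Abca1, the transporter that moves cholesterol from cells onto apolipoprotein A-I, had the smallest p of the additive model. It read 377 and 345, then 616 and 589 in control mice, and 470 and 462, then 889 and 1050 in Socs3-deleted mice. The 4 IL-6 arrays all exceeded the 4 PBS arrays, and the common change was 1.86-fold (log2 0.90 ± 0.09, SE, 95% interval 0.69 to 1.10; limma adjusted p = 0.0648, and 0.00907 with 4 group means). Its second probe set gave 0.45 (limma adjusted p = 0.696). Abca1 and the bile acid conjugating enzyme Baat (0.30) were the 2 of 14 transport genes above PBS in both genotypes. Of 17 apolipoprotein genes, Apoa5, a regulator of plasma triglyceride, and Pltp, a phospholipid transfer protein, lay above PBS, with common log2 changes of 0.48 and 0.34. All 3 Apoa5 probe sets had positive changes, from 0.48 to 0.63.

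Tubb6, a beta-tubulin, read 105 and 110, then 224 and 152 in control mice, and 138 and 150, then 527 and 500 in Socs3-deleted mice. The common change was 2.47-fold (log2 1.30 ± 0.22, SE; limma adjusted p = 0.117, and 0.00907 with 4 group means), and the 4 IL-6 arrays stood above the 4 PBS arrays. Plac8, a small cysteine-rich protein, had a common log2 change of 0.71 ± 0.11 (SE) and passed with 4 group means (limma adjusted p = 0.0158). The kinase Nek7, the mRNA export factor Pcid2, the splicing assembly factor Smn1 and Caml, a factor of membrane protein insertion, had smaller changes of 0.57, 0.54, 0.40 and 0.42, with limma adjusted p = 0.117 each. The second Pcid2 probe set gave 0.08, and the other 3 of Caml gave -0.09 to 0.00, so those 2 genes rest on 1 probe set each. Raising the floor to the 50th percentile left a Pcid2 change of 0.19. Gas6, a ligand of TAM receptor kinases chosen after its values were seen, read 136 and 123, then 302 and 251 in control mice, and 248 and 316, then 406 and 386 in Socs3-deleted mice (common log2 change 0.80 ± 0.14, SE; limma adjusted p = 0.117, and 0.0276 with 4 group means).

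Fewer genes read lower by a large factor, and the lowest common changes outside the pancreatic genes were those of the enzymes Ddc and G6pc. Ddc, the decarboxylase that makes dopamine and serotonin from their amino acid precursors, read 353 and 728, then 129 and 154 in control mice, and 212 and 325, then 53.8 and 79.8 in Socs3-deleted mice. All IL-6 arrays lay below all PBS arrays, 3.80-fold in the mean (log2 -1.93 ± 0.24, SE; limma adjusted p = 0.0648, and 0.0283 with 4 group means). The higher PBS value of each genotype came from the array with pancreatic signal, and without both of those arrays the log2 change was -1.51. G6pc, the last enzyme of glucose release, read 1711 and 1569, then 682 and 641 in control mice, and 1164 and 1521, then 533 and 187 in Socs3-deleted mice. Its IL-6 arrays were also all below its PBS arrays (log2 -1.69 ± 0.31, SE; limma adjusted p = 0.117). It was 1 of 3 genes below PBS in both genotypes among 21 of gluconeogenesis and glucose control, with Tat and the glycogen phosphatase subunit Ppp1r3c, while Pcx lay above. Pck1, which opens gluconeogenesis, had a common log2 change of -0.84 that rested on S3_IL6 replicate 2 (93.5, against 686 to 1361 on the other arrays).

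Klf9, a zinc-finger factor induced by glucocorticoids, read 422 and 378, then 274 and 306 in control mice, and 403 and 479, then 278 and 294 in Socs3-deleted mice. All 4 IL-6 arrays were below the 4 PBS arrays, with nearly equal levels in both genotypes (common log2 change -0.54 ± 0.09, SE; limma adjusted p = 0.117, and 0.0478 with 4 group means). Its second probe set gave -0.32. Fam107b read 368 and 372, then 219 and 268 in control mice, and 268 and 250, then 164 and 168 in Socs3-deleted mice. The control IL-6 arrays and the Socs3-deleted PBS arrays overlapped, while each genotype alone was separated (common log2 change -0.63 ± 0.08, SE; limma adjusted p = 0.0648, and 0.0276 with 4 group means). Amotl2, a junction scaffold of the angiomotin family, had a common log2 change of -0.50 ± 0.06 (SE; limma adjusted p = 0.0648, and 0.0322 with 4 group means), and -0.14 with the floor at the 50th percentile. The growth hormone receptor Ghr (-0.43), the carboxylesterase Ces1d (-0.39), the secreted protein Fam3c (-0.43), the adhesion protein Mpzl2 (-0.36) and the oxygen sensor Egln1 (-0.35) complete the 10, with limma adjusted p from 0.117 to 0.124. Both Ces1d probe sets were lower (-0.34 and -0.39), while the second Ghr probe set gave -0.04.

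**Figure D3:**
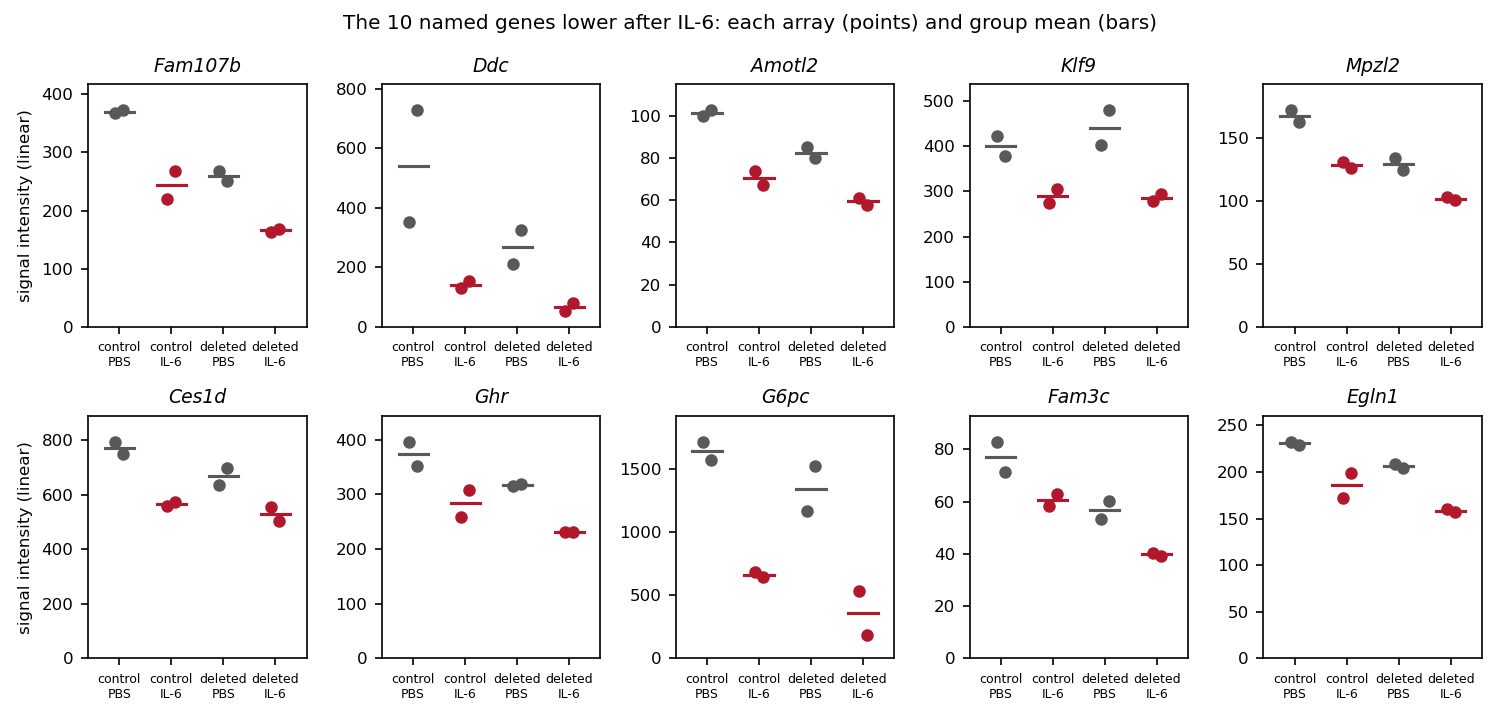
Signal intensity on a linear scale (vertical axis) of the 10 genes named for a lower signal after IL-6, by group (horizontal axis); points are arrays and bars group means of 2 arrays. Both IL-6 arrays lie below both PBS arrays of their genotype in every panel, from Ddc (common log2 change -1.93) to Egln1 (-0.35).

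Amino acid catabolism was the metabolic group with the most same-way members. Of 39 genes of the urea cycle and amino acid catabolism, 8 (20.5%) lay below PBS in both genotypes and 0 above. A positive common change was found for 3 of the 39, against 3180 of all 6934 genes, and the list's median was -0.26. Slc25a15, the mitochondrial ornithine carrier, read 1851 and 1837, then 1426 and 1540 in control mice, and 2051 and 1961, then 971 and 1049 in Socs3-deleted mice. It fell by 0.65 in the fit with 4 group means (limma adjusted p = 0.0154), with log2 changes of -0.32 and -0.99. Tat, which starts tyrosine breakdown, had a common log2 change of -0.70 (limma adjusted p = 0.320), Hgd of the same pathway -0.60, the glycine-cleaving Gldc -0.59 and Cps1, which feeds ammonia into the urea cycle, -0.29. Ahcy, Qdpr and Ass1 complete the 8, at -0.25, -0.26 and -0.14.

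Of 27 phase II conjugation enzymes, 3 lay below PBS in both genotypes: the sulfotransferase Sult1d1 (-0.63), the glucuronosyltransferase Ugt2b34 (-0.33) and the glutathione transferase Gsta3 (-0.29). Of 32 cytochrome P450 enzymes, 2 did, the bile acid hydroxylase Cyp8b1 at -0.52 and the steroid hydroxylase Cyp17a1 at -0.44. Of 30 genes of cholesterol, fatty acid and triglyceride synthesis, 2 did, Gpam, the first enzyme of glycerolipid synthesis, at -0.72 and Acly at -0.30. The list of 31 nuclear receptors and hepatic transcription factors had 4 below PBS in both genotypes, Rora, Foxa2, Nr2f6 and the xenobiotic receptor Nr1i2, at -0.75, -0.42, -0.30 and -0.24, and Rora passed with 4 group means (limma adjusted p = 0.020). Raising the floor to the 50th percentile left a Rora change of -0.28, and a second probe set with values near the floor gave 0.01. Of 21 plasma proteins lowered in the acute phase, 2 did, Igfals, the stabiliser of circulating insulin-like growth factor, at -0.60 and the thyroid hormone carrier Ttr at -0.36. On that list 6 of the 21 had a positive common change, among them Serpina6 at 0.59. Igfals was also the 1 of 18 genes of the growth hormone and IGF axis, and Klf9 and Rora the 2 of 18 circadian clock genes. Shares below PBS were 6.25% for cytochrome P450, 6.67% for lipid synthesis and 5.56% for the growth hormone list. These lie near the 3.89% of all genes. The shares were 11.1% for phase II and clock genes, 12.9% for nuclear receptors and 9.52% for plasma proteins, from 2 to 4 genes each.

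In several lists the largest common changes belonged to genes whose arrays overlapped in at least 1 genotype, and none of them passed in the additive model. The triglyceride synthesis genes Lpin1 and Lpin2 had common log2 changes of -1.46 and -0.84 (limma adjusted p = 0.407 and 0.531), and Cyp7a1, the rate-limiting enzyme of bile acid synthesis, had -0.95 (limma adjusted p = 0.552). Cyp7a1 read 310 and 119, then 59.9 and 246 in control mice, so that both groups held a high and a low array. Hsd3b5, Cyp26a1 and Mcm10 had -1.12, -0.95 and -0.90, and Hal, Clock, Lpl, Gsta2, Abcc2, Klkb1 and Serpind1 lay between -0.70 and -0.35. Positive values of 0.41 to 0.78 were those of Ier3, Gadd45g, Socs2, Dnajb9, Serpina6, Cxcl1 and Ccnd1. A second, dimmer Serpina6 probe set gave 0.55 and did lie above PBS in both genotypes. Ppara, the receptor that drives fatty acid oxidation, and Alas1, which starts haem synthesis, had -0.50 and -0.62, and each was low on S3_IL6 replicate 2 alone (95.4 and 462).

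No member moved the same way among 32 genes of complement and coagulation and 31 of fatty acid oxidation, with medians of -0.11 and -0.06. Among 32 genes of the cell cycle, 3 lay above and 3 below, with a median of -0.01. These shares of 0 to 9.38% lie around the background of 4.53% and 3.89%. So do the shares above PBS of chemokines and cytokines (7.14%), STAT3-linked regulators (3.45%), unfolded protein and heat shock genes (6.06%) and iron and haem genes (5%).

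**Figure D4:**
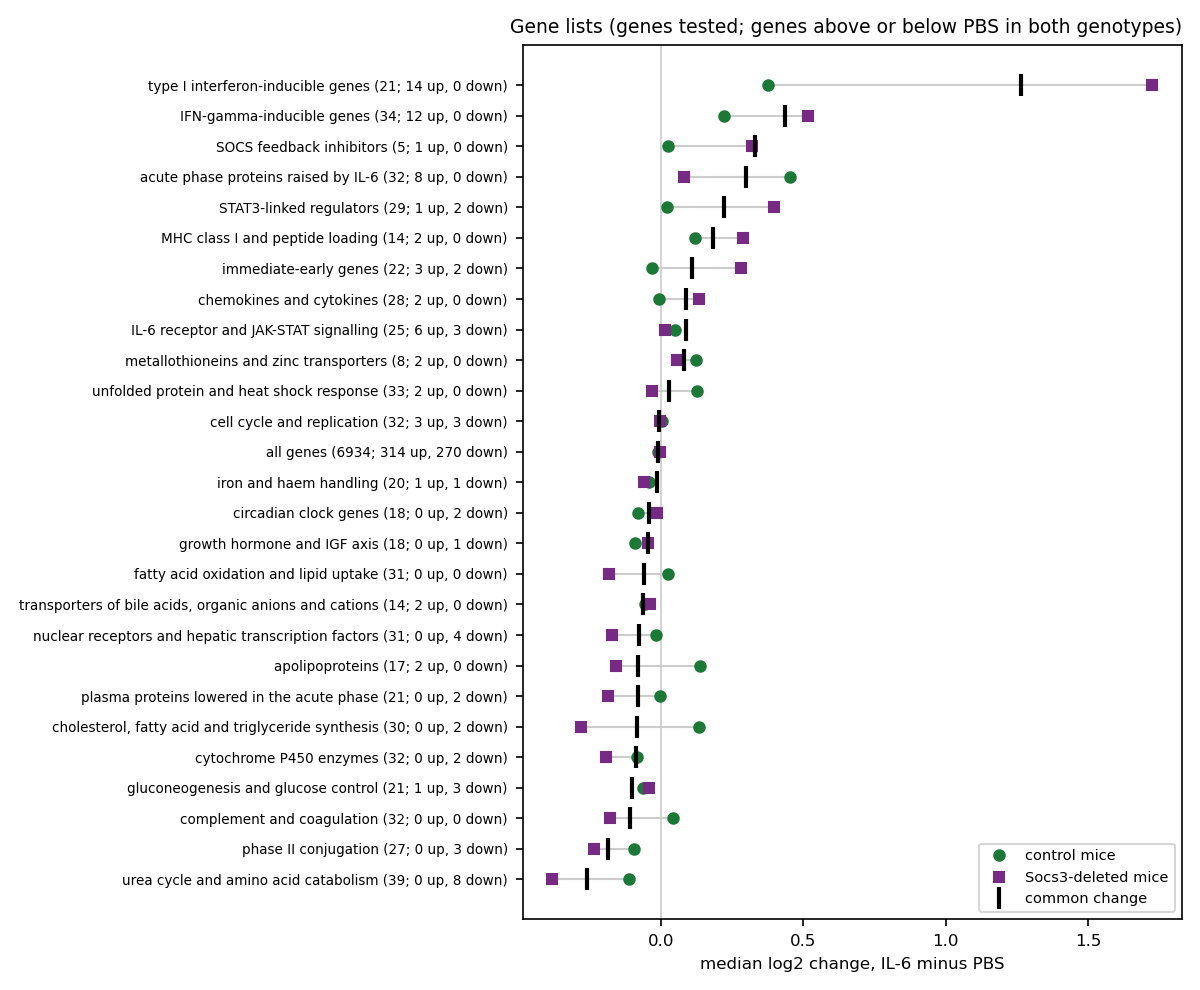
Median log2 change after IL-6 (horizontal axis) of each function list in control mice (circles), Socs3-deleted mice (squares) and for the common change (black bars); brackets give the genes tested and those above or below PBS on every array in both genotypes. The type I interferon list has the highest common median (1.26) and the urea cycle and amino acid list the lowest (-0.26).

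Few markers of other cells moved the same way with the injection. Of 16 Kupffer cell and macrophage markers, only the protease Ctss lay above PBS in both genotypes (log2 0.45; limma adjusted p = 0.423). The list's summed level in Socs3-deleted mice was 2883 and 3202 after PBS and 4420 and 3673 after IL-6. In control mice it overlapped, at 2645 and 2380 after PBS and 2637 and 2556 after IL-6. The lipopolysaccharide co-receptor Cd14 read 775 and 842 on the Socs3-deleted IL-6 arrays and 257 to 328 on the other 6, and its control arrays overlapped. Of 11 neutrophil markers, Lcn2 lay above and Ly6g below. Without Lcn2 the neutrophil markers summed to 1185 to 1380 on every array, and the defining markers S100a8 and S100a9 read 23.1 to 57.3, near the floor of 33.1. No same-way member was found among 7 T and NK cell, 7 B cell, 10 endothelial, 12 stellate cell and fibroblast, 4 biliary and 9 erythroid markers, whose medians lay between -0.08 and 0.09. Taken over both genotypes, the sums of these markers overlapped between PBS and IL-6 arrays. Within Socs3-deleted mice the T and NK cell sums were 786 and 748 after PBS and 843 and 797 after IL-6. Within control mice the biliary sums were 348 and 380 after PBS and 396 and 426 after IL-6. Each of these sums overlapped in the other genotype. Of 13 hepatocyte markers, Tat, Ttr, Cps1 and Ass1 (30.8%) lay below PBS in both genotypes, against 3.89% of all genes. The median was -0.14, and 1 of the 13 had a positive common change. Within Socs3-deleted mice the hepatocyte sums were 74285 and 71345 after PBS and 64501 and 61961 after IL-6. Within control mice they overlapped, at 73470 and 69827 after PBS and 67118 and 71271 after IL-6. The pancreatic list had a median of -1.37, and 2 of 15 (Zg16 and Pnliprp2) lay below PBS in both genotypes. Without both PBS arrays of replicate number 2 the median was 0.00, and Prss2 read 24.5 to 27.3 on the 6 remaining arrays.

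Across 9558 probe sets the IL-6 changes in control and Socs3-deleted mice, which share no array, correlated with Pearson's r = 0.44 and Spearman's rho = 0.19, and 52.9% had the same sign. Of the 100 probe sets with the smallest limma p in control mice, 89 had the same sign in Socs3-deleted mice. Of the 100 with the smallest limma p in Socs3-deleted mice, 90 had the same sign in control mice. Pearson's r was 0.25 without WT_IL6 replicate 1 and 0.49 without WT_IL6 replicate 2. Genes are not independent replicates, so these values are descriptions. Within Socs3-deleted mice alone limma called 98 of the 9558 probe sets. Of these, 89 had the same sign in control mice, against 52.9% of all probe sets. Same-way movement was found for 67 of them, and over all 9558 for 418 upward and 353 downward. The call and the same-way rule both use the Socs3-deleted arrays, so the 67 is a description. Those 98 became 9 without S3_IL6 replicate 2, 11 and 19 without S3_PBS replicates 2 and 1, 40 without either one of the control PBS arrays, and 0 without both PBS arrays of replicate number 2. Within control mice limma called 0, with 295 at an unadjusted p under 0.05.

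Of the 314 genes above PBS, 246 had the larger change in Socs3-deleted mice, with median log2 changes of 0.26 in control and 0.40 in Socs3-deleted mice. Of the 270 below, 203 had the larger fall in Socs3-deleted mice, with medians of -0.19 and -0.28. The difference between the IL-6 changes passed for 3 of 9558 probe sets (0.0314%), those of Ifit2, Mx1 and Cmpk2 (every control array of Ifit2 and Mx1 was at the floor), and for none of the 584 same-way genes, where the smallest limma adjusted p was 0.0661, for Usp18. The count of 3 was 0 with the replicate block within genotype and 0 without both PBS arrays of replicate number 2. For Saa3 the difference was -0.36 (95% interval -2.77 to 2.04) and for Ddc -0.16 (-1.35 to 1.04), intervals that leave room for large differences. For Abca1 it was 0.31 (-0.06 to 0.68), for Klf9 -0.15 (-0.56 to 0.25) and for Amotl2 0.05 (-0.27 to 0.38).

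The response of the Ifng-null strain to IFN-γ, on 4 further arrays, was set beside the common IL-6 change. Of the 314 genes above PBS, 79.3% had a positive change after IFN-γ, against 37.1% of all genes tested. Of the 270 below, 89.3% had a negative change, against 62.2% of all genes. Limma called 49 of the 6934 genes higher after IFN-γ. Of these, 29 lay above PBS in both genotypes after IL-6, as did 4.53% of all genes tested. The difference between the common IL-6 change and the IFN-γ change passed for 3 of 9558 probe sets (0.0314%), each more positive after IFN-γ: those of Irf8 and Samhd1 and 1 without a single gene symbol. Samhd1, a nucleotide hydrolase, had log2 changes of 1.61 after IL-6 and 4.29 after IFN-γ (limma adjusted p = 0.0209 for the difference). Irf8, an interferon regulatory factor, had 0.19 and 1.88 (limma adjusted p = 0.0059).

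Some members of the common response had little change or a change of opposite sign after IFN-γ, although none of these differences passed. Abca1 had a log2 change of 0.04 after IFN-γ and 0.90 after IL-6, Nek7 0.07 and 0.57, Gas6 -0.19 and 0.80, and Id3 0.18 and 1.11. Klf9 had 0.42 after IFN-γ and -0.54 after IL-6. By contrast Fam107b had -1.12 after IFN-γ and -0.63 after IL-6, and G6pc -1.35 and -1.69. The 2 injections were given to different strains, so strain and cytokine cannot be told apart in these differences.

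**Figure D5:**
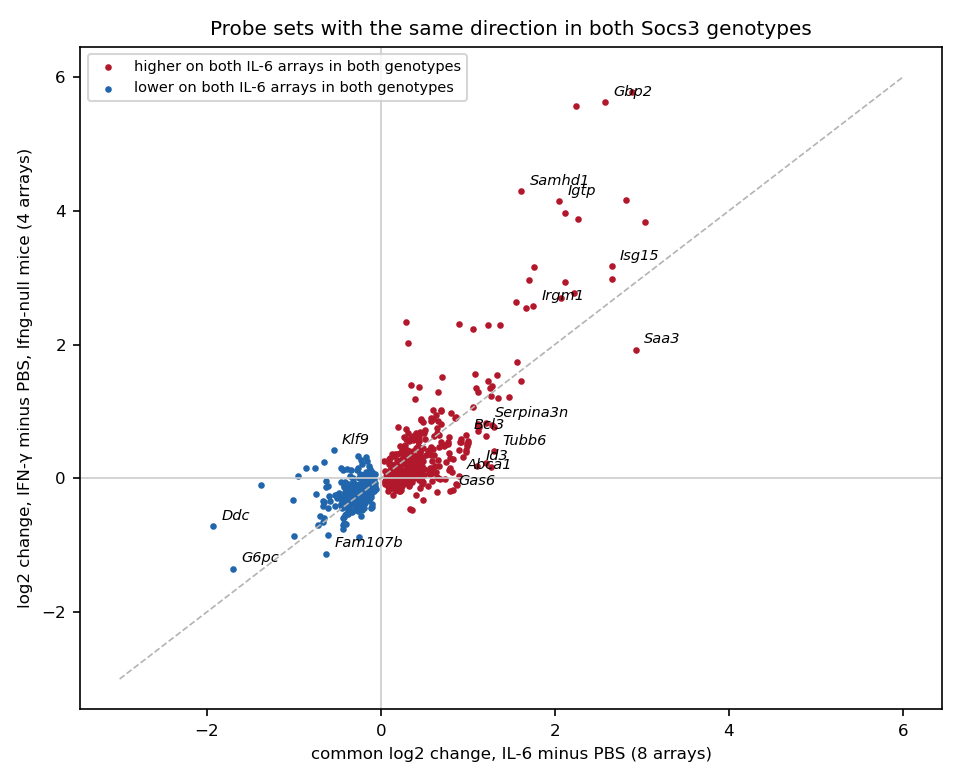
Common log2 change after IL-6 over 8 arrays (horizontal axis) against the log2 change after IFN-γ in Ifng-null mice over 4 arrays (vertical axis), for probe sets that lay above (red) or below (blue) PBS on every array in both Socs3 genotypes; the dashed line marks equal changes. Samhd1 (1.61 and 4.29) lies above the line, while Saa3 (2.93 and 1.93), Abca1 (0.90 and 0.04) and Klf9 (-0.54 and 0.42) lie away from it.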

How the data were processed

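Liver RNA was read on Affymetrix mouse arrays. The values the authors deposited are signal intensities on a linear scale, and the steps behind them (software, background, scaling) are not stated by the sources used here. Array medians were alike, so no further normalization was applied. Groups came from the sample titles.

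Of 12488 probe sets, 66 controls were left out. Intensities under the 25th percentile of all values (33.1) were raised to that floor before taking log2. Testing required that at least 2 of the 8 arrays lay above the floor, which left 9558 probe sets. Near the floor a change reads too small. The platform annotation gave 10833 probe sets 1 gene symbol, 396 several and 1193 none, and only those with 1 were named. In counts of genes, each gene was represented by its brightest probe set on these 8 arrays.

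R 4.3.3 with limma 3.58.1 (lmFit and eBayes) fitted injection and genotype additively, with 5 residual degrees of freedom. All p-values are two-sided and Benjamini-Hochberg adjusted over the 9558 probe sets, with a threshold of 0.05. The changes within a genotype and their difference came from 4 group means, and the comparison with IFN-γ, added after seeing the data, from 12 arrays with 6 group means. SEs are those of log2 changes, and precision is limited by having 2 arrays in a group. The code was tested on simulated data.

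Because no probe set passed the additive model, the rule for named genes took the 10 same-way genes with the smallest p in each direction, which are said not to pass. To these it added up to 2 members of each of 26 function lists and 10 marker lists by size of the common change, Socs3, and the genes behind any count up to 5. Other genes were named after their values were seen, among them the remaining same-way list members. The members, lists and tests were chosen with earlier results of these data known. Promoters came from RefSeq GRCm38.p6. Alternatives covered the filter and floor, quantile normalization, moderation with a trend or robustly, array weights, other group means, a replicate block and omitted arrays.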

Additional observations from a re-analysis of the deposited data

Results flagged for a closer look

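The IL-6 changes differed between the genotypes by limma's test of the difference for Ifit2, Mx1 and Cmpk2, an RNA-binding antiviral protein, an antiviral GTPase and a mitochondrial nucleotide kinase. The log2 change was larger in Socs3-deleted mice by 3.14 for Ifit2, 2.81 for Mx1 and 2.57 for Cmpk2 (limma adjusted p = 0.0213, 0.00567 and 0.0213). Ifit2 read 29.27 to 32.05 on the 4 control arrays, 51.3 and 28.3 on the Socs3-deleted PBS arrays and 403 and 328 after IL-6. Mx1 read 14.2 to 22.2 on the 6 other arrays, all below the floor, and 205 and 265 on the Socs3-deleted IL-6 arrays, so its difference is understated. Cmpk2 read 43.2 to 58.5 on the 6 other arrays and 343 and 303 on the Socs3-deleted IL-6 arrays. These 3 genes passed the fit of the common change with 4 group means and did not move the same way. The count of 3 differences was 0 with the replicate block within genotype and 0 without both PBS arrays of replicate number 2.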

How the results depend on the processing

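The additive model's count of 0 was 1 (higher) with robust moderation, 5 (3 higher, 2 lower) with array weights, 71 (59, 12) with 4 group means and 104 (90, 14) with 12 arrays and 6 group means. With the replicate block it was 1 (lower), and with the replicate block within genotype 2 (1 higher, 1 lower). Correlations of same-numbered deviations between groups ran from 0.0022 to 0.31, 3 of 6 above 0.1. Because not every one was above 0.1 and no label ties the numbers to a shared animal, litter or day, the arrays were not treated as pairs. Leaving out 1 array gave 0 to 68 calls (0 to 49 higher, 0 to 19 lower), 68 without WT_IL6 replicate 2. Quantile normalization, other floors and filters and an intensity trend kept it at 0. The 71 calls with 4 group means were 0 to 55 without 1 array and 0 without both PBS arrays of replicate number 2, settings added after seeing the data. The 98 calls within Socs3-deleted mice were 5 with no filter, 50 with the replicate block within genotype and 9 to 84 without 1 array (9 without S3_IL6 replicate 2). The 0 calls within control mice were 2 with no filter and 0 to 4 without 1 array. The 3 differences between genotypes were 1 above the floor on at least 4 arrays, 6 with robust moderation, 0 with the replicate block within genotype and 0 to 15 without 1 array. Same-way probe sets, 418 higher and 353 lower, became 556 to 856 and 450 to 1123 without 1 array, where fewer arrays must be separated. Without both PBS arrays of replicate number 2, chosen after seeing the data, they were 1182 and 1906, and the calls within Socs3-deleted mice and the differences were 0 each, with fewer samples.

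Over 20 or 21 settings each, 81 of 88 named probe sets never turned their sign, and 1 of these, Prss2, reached 0. In at least 1 setting 43 moved by over 1.5 times, 8 of them with the floor at the 50th percentile. The sign turned with array weights for Hbb-b2 (0.0029) and Hba-a1 (0.016), without S3_IL6 replicate 1 for Cd79b (0.028), and without S3_IL6 replicate 2 for Pck1 (0.012), Ppara (0.038) and Alas1 (0.050). Leaving out 1 array gave -0.096 to 0.028 for Cd79b, -1.31 to 0.012 for Pck1, -0.82 to 0.038 for Ppara and -1.06 to 0.050 for Alas1. It turned without both PBS arrays of replicate number 2 for Reg1 (0.040), Hbb-b2 (0.67) and Hba-a1 (0.58). The causes were not tested.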
